A study of Mus musculus with 8 samples.

Results

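Small nucleolar RNAs (snoRNAs) were read out of RNA sequencing of male mouse submandibular glands, in 4 libraries from Dp16 mice and 4 from wild-type (WT) mice. The genes described are those whose symbol begins with Snord or Snora and that held 80 or more reads summed over the 8 libraries. There were 53 of them, 36 Snord and 17 Snora, out of 141 Snord and Snora genes (99 Snord and 42 Snora) and 54838 genes in each table. They were thus chosen by their read counts summed over both genotypes, which is a description and not a finding. Of the 141 genes, 75 had 0 reads in all 8 libraries. Dp16 mice were B6.129S7-Dp(16Lipi-Zbtb21)1Yey/J, a mouse model of Down syndrome that carries a duplication of a segment of chromosome 16, and the labels list their strain as C57BL/6J and their genotype as transgenic. WT mice were C57BL/6J. Both came from the Jackson Laboratory, both were male, and their age is not given in the sources used here. The segment, with Lipi and Zbtb21 as its outer genes (chr16:75540514-97962622, GRCm38), covers only part of the genes that trisomy of human chromosome 21 affects. It holds 0 of the 141 Snord and Snora genes.

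SnoRNAs are short RNAs of the nucleolus that pair with ribosomal RNA precursors or with spliceosomal RNAs and place a protein complex on them. Box C/D snoRNAs (Snord) carry a C box and a D box, bind fibrillarin, Nop56, Nop58 and Snu13, and mostly guide methylation of ribose. Box H/ACA snoRNAs (Snora) carry an H box and an ACA box, bind dyskerin (Dkc1), Gar1, Nhp2 and Nop10, and mostly guide conversion of uridine to pseudouridine. A few of both classes act instead in cutting the precursor of ribosomal RNA. In mammals most snoRNAs are trimmed out of introns of host genes, many of which code for ribosomal proteins or translation factors. The submandibular gland makes and secretes large amounts of saliva protein, which takes many ribosomes.

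Each library held 90790542 to 115729892 reads assigned to genes. The labels do not say whether each library came from a separate animal, so p-values measure the spread between these samples, which may be technical. As a check of the genotype labels, 121 of the 127 tested genes in the duplicated segment had a log2 fold change above 0 (Dp16 over WT) and 37 were called higher and 0 lower, with a median of 0.66. Of all 19358 genes tested, edgeR called 91 as higher. Gland markers were present in every library, with the summed level of 10 markers at 236442 to 320016 CPM (reads scaled to a common library size by the trimmed mean of M-values, TMM) in Dp16 and 287702 to 375525 CPM in WT. Of the 10, 8 had a log2 fold change below 0, with a median of -0.49. An unadjusted edgeR p below 0.05 was found for 4, all lower, where 11.9% of all genes had one as lower. Of the 10, 1 was called, Klk1, the main tissue kallikrein, where edgeR called 0.155% of all genes as lower. Klk1 fell to 680 ± 64.4 CPM in Dp16 against 1105 ± 52.8 CPM in WT (SD, n = 4 each; log2 fold change -0.70, edgeR adjusted p = 0.0358). DESeq2 called 3 of the 10 as lower, where it called 4.2% of all genes as lower. Of 15 leukocyte markers 14 were above 0 in log2 fold change, with a median of 1.39, and their summed level was 174 to 292 CPM in Dp16 and 153 to 199 CPM in WT. Klrd1, a natural killer cell receptor subunit, was the one called by edgeR, at 2.16 ± 0.434 CPM in Dp16 and 0.825 ± 0.151 CPM in WT (SD, n = 4 each; log2 fold change 1.39, edgeR adjusted p = 0.0331). DESeq2 called 11 of the 15 as higher and limma-voom 4. Over all genes tested, DESeq2 called 1104 of 19313 as higher and limma-voom 247 of 19358. Of 8 fat and muscle markers 7 were tested, 5 of them below 0 in log2 fold change, with a median of -1.52 and 0 called by edgeR. An unadjusted edgeR p below 0.05 was found for 3, all lower, where 11.9% of all genes had one as lower. Their summed level was 6.52 to 8.53 CPM in Dp16 and 6.65 to 9.97 CPM in WT, most of it Fabp4 at 6.33 ± 1.02 CPM in Dp16 and 6.00 ± 0.791 CPM in WT. Adipoq, the adipocyte hormone adiponectin, was at 0.0870 ± 0.0749 CPM in Dp16 and 0.336 ± 0.232 CPM in WT, and Acta1, skeletal muscle actin, at 0.126 ± 0.0746 CPM in Dp16 and 0.440 ± 0.208 CPM in WT (SD, n = 4 each). These levels are low, and the list was split. Fabp4 and Tnnt3 had log2 fold changes above 0, at 0.08 and 0.14, and Ckm was at -0.31. The summed level of 5 erythroid markers was 84.4 to 153 CPM in Dp16 and 78 to 128 CPM in WT. Reads overlapping no counted feature made up 19.8 ± 1.16% of all reads in Dp16 and 15 ± 0.965% in WT (SD, n = 4 each), a difference of 4.80 percentage points (exact two-sided permutation test, p = 0.0286, the smallest this design allows). The part of the leukocyte, gland, fat and muscle markers and the unassigned reads in the snoRNA values was not tested. In whole glands, fewer cells of a type and less RNA per cell cannot be told apart.

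The sequences that carry the results are printed from GENCODE M21 transcripts (GRCm38), 5′ to 3′ on the transcript's strand, as DNA letters. 4 of the 5 H/ACA snoRNAs with the highest mean level are shown, because the largest and the smallest differences among those 5 fall here. Snora73b (ENSMUSG00000065353) lies at chr4:132352322-132352526 on the minus strand within Rcc1. Snora78 (ENSMUSG00000089255) lies at chr17:24719676-24719803 on the minus strand within the long noncoding host gene Snhg9. Snora30 (ENSMUSG00000065259) lies at chr7:127527874-127528003 on the plus strand within Srcap, and Snora21 (ENSMUSG00000064901) at chr11:97781639-97781775 on the minus strand within the ribosomal protein gene Rpl23. All 4 lie outside the exons of these hosts. The sequence of the fifth, Snora74a, is not shown. Capitals mark the H box (ANANNA, starting within 35% to 65% of the length, the match closest to the middle) and the ACA box (ACA, starting in the last 8 bases).
Snora73b: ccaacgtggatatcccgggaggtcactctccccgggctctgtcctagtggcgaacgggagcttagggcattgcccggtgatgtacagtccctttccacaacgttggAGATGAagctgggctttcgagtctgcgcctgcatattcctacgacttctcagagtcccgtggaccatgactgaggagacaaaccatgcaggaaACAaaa
Snora78: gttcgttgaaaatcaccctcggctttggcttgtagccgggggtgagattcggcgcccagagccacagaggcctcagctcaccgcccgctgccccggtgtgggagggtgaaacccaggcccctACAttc
Snora30: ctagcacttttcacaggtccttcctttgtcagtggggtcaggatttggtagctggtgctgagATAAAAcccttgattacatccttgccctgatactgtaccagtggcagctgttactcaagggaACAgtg
Snora21: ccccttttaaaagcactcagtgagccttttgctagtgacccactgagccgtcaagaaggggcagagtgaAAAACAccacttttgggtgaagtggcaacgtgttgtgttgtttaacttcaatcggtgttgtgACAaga

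Of the 5 C/D snoRNAs with the highest mean level, 4 follow, because they range from a difference near 0 to one that rests mainly on 1 library. Snord17 (ENSMUSG00000077714) lies at chr2:144265979-144266216 on the minus strand in an intron of Snx5. Snord15a (ENSMUSG00000065822) lies at chr7:99482785-99482932 on the minus strand in an intron of the ribosomal protein gene Rps3. Snord104 (ENSMUSG00000065126) lies at chr11:106500993-106501062 on the plus strand with no host, and Snord89 (ENSMUSG00000077704) at chr1:39548745-39548854 on the minus strand within the noncoding gene Gm15832. Capitals mark the C box (ATGATGA or GTGATGA in the first 20 bases) and the D box (CTGA in the last 20 bases).
Snord17: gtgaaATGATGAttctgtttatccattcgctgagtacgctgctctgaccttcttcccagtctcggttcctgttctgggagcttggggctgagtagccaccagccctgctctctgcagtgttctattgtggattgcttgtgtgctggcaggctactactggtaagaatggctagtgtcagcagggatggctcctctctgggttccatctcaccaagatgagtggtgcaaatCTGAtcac
Snord15a: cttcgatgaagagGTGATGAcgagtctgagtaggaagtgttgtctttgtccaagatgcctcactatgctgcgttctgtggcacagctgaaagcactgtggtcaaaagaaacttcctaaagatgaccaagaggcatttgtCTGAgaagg
Snord104: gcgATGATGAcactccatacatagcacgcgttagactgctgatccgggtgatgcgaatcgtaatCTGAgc
Snord89: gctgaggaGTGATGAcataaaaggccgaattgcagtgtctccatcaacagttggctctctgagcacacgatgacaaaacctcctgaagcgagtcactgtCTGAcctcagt

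A further 3 C/D snoRNAs, of equal length, that share the noncoding host 2410006H16Rik on chromosome 11, are shown, because they differ in how far 1 library departs from the rest. On the plus strand, Snord49b (ENSMUSG00000064437) lies at chr11:62603079-62603150, Snord49a (ENSMUSG00000065734) at chr11:62603450-62603521 and Snord65 (ENSMUSG00000077457) at chr11:62604515-62604586. Capitals mark the same C and D boxes.
Snord49b: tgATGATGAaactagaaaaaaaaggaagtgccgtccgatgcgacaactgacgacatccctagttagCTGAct
Snord49a: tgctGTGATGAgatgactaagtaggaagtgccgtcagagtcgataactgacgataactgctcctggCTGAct
Snord65: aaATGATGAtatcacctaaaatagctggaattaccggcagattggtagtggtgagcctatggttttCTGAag

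The boxes were searched on the transcript's strand only, in all 53 RNAs and in 1383 annotated transcripts of the small nuclear RNA type. Both C and D boxes were found in 20 of the 36 Snord genes (55.6%), in 0 of the 17 Snora genes and in 0 of the 1383 small nuclear RNA transcripts. Both H and ACA boxes were found in 15 of the 17 Snora genes (88.2%), in 0 of the 36 Snord genes and in 59 of the 1383 transcripts (4.27%). Each of the other 18 members matched 1 of its 2 boxes, and a missing match says only that these letters are not in these windows. The Snord genes measured 64 to 238 bases, with a median of 80, and the Snora genes 128 to 205 bases, with a median of 132.

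Position relative to other genes, which the read threshold did not use, went with having reads. Of the 74 Snord and Snora genes that lie outside every same-strand exon of another gene, 48 (64.9%) reached 80 reads, and their median was 214.5 reads. Of the 67 that lie at least in part under such an exon, 5 (7.46%) reached it, and their median was 0 reads. Counting tools leave out a read that matches exons of more than 1 gene, and how far this sets the low counts was not tested. Of the 53, 12 were at least 90% identical to another annotated snoRNA or small RNA gene, and their reads could be split or lost among copies. Snora73b, for example, is 96.6% identical to Snora73a, which held 17 reads against 127746 for Snora73b, and Snora19 is 100% identical over its length to another annotated gene.

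Reads were concentrated on a few RNAs. Snora74a took 42.7% of the 610744 reads of the 53 genes, and Snora74a, Snora73b and Snord17 together took 79.3%. Per length, mean levels over the 8 libraries were highest for Snora74a at 1590.3 CPM per kilobase, Snora73b at 747 and Snord17 at 477, and the next were Snora21 at 187, Snora78 at 163, Snord13 at 157, Snord104 at 144 and Snora30 at 106 CPM per kilobase. The lowest was Snora19, at 0.761 CPM per kilobase. Sequencing fragments can be longer than these RNAs, so per-length levels of the shortest genes are approximate.

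Both classes were lower on average in Dp16 glands than in WT glands, by an amount that depends on 1 WT library for the C/D class more than for the H/ACA class. Summed over the 17 Snora genes, the Dp16 libraries held 451, 418, 465 and 434 CPM, against 571, 619, 821 and 543 CPM in the WT libraries. On this scale, every Dp16 library lay below every WT library, and WT replicate 3 stood far above the other WT libraries. The means were 442 ± 20.5 CPM in Dp16 and 639 ± 125 CPM in WT (SD, n = 4 each), so that Dp16 had 0.692 times the WT level, or 0.764 times without WT replicate 3. Without the TMM scaling the same sums were 470 ± 54.9 CPM in Dp16 and 599 ± 85.1 CPM in WT, and the groups then overlapped, with Dp16 at 431 to 551 CPM and WT at 526 to 715 CPM.

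Summed over the 36 Snord genes, the Dp16 libraries held 170, 157, 178 and 151 CPM, against 191, 202, 315 and 165 CPM in the WT libraries. The groups overlapped, with WT replicate 4 inside the range of the Dp16 libraries and WT replicate 3 above everything else. The means were 164 ± 12.1 CPM in Dp16 and 218 ± 66.5 CPM in WT (SD, n = 4 each), a ratio of 0.751, or 0.882 without WT replicate 3. Without the TMM scaling they were 175 ± 24.9 CPM in Dp16 and 203 ± 49.3 CPM in WT, a ratio of 0.858, or 0.971 without WT replicate 3. Snord17 makes up most of this sum. With Snord17 left out, the Dp16 libraries held 51.3 to 56.3 CPM, against 93.2, 79.0, 181 and 50.6 CPM in the WT libraries, and the log2 ratio of the group means was -0.91 in place of -0.41, or -0.46 when WT replicate 3 was left out too. The ratio of the Snord sum to the Snora sum within a library was 0.371 ± 0.0153 in Dp16 and 0.337 ± 0.0341 in WT (SD, n = 4 each), and the groups overlapped. With the most abundant RNA of each class left out, the direction turned, at 0.292 ± 0.0276 in Dp16 and 0.355 ± 0.109 in WT, again with overlap.

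**Figure D1:**
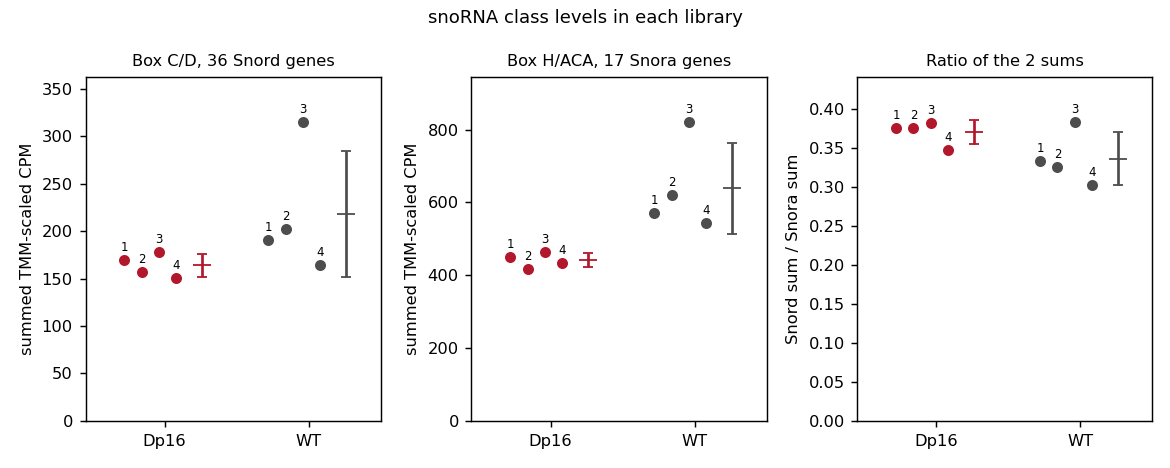
Summed TMM-scaled CPM of the 36 Snord genes (left) and the 17 Snora genes (middle), and the ratio of the 2 sums (right), with 1 numbered point per library, Dp16 left of WT, and the mean ± SD (n = 4) beside the points. The Snora sums of Dp16 end at 465 CPM and those of WT start at 543 CPM, while the Snord sums and the ratio overlap.

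Gene by gene, 48 of the 53 snoRNA genes had a log2 fold change below 0 (Dp16 over WT), where 48.9% of all 19358 genes tested did. None of the 53 was called at an adjusted p below 0.05 by edgeR's quasi-likelihood test with Benjamini-Hochberg adjustment over all genes, a rule that calls 0.625% of all genes and 0.155% of them as lower in Dp16. At an unadjusted p below 0.05, edgeR gave 23 of the 53, all of them lower in Dp16, where it gave 24.6% of all genes in either direction and 11.9% as lower. DESeq2 on the same counts called 14 of the 53, all lower, where it called 4.2% of all genes as lower, and limma-voom with quality weights called 1, where it called 0.77% as lower. At an adjusted p below 0.10 edgeR gave 4 of the 53 (Snora74a, Snora78, Snord13 and Snora20), where it gave 2.9% of all genes as lower. A fit with the replicate number as a block called 2.15% of all genes as lower, and its effect is given with the other settings. All 53 genes passed edgeR's expression filter. The median log2 fold change was -0.63 over the 53 genes, -0.63 over the 36 Snord genes and -0.55 over the 17 Snora genes, against 0.01 over all genes tested. In level, the median of the 53 corresponds to 64.6% of WT.

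All 17 Snora genes had a log2 fold change below 0, between -1.23 and -0.05, and 31 of the 36 Snord genes did, between -1.60 and -0.03. The 5 Snord genes above 0 were Snord71 at 0.35, Snord85 at 0.26, Snord93 at 0.14, Snord7 at 0.12 and Snord53 at 0.09, each with fewer than 1000 reads in all, named here after their values were seen. In 12 genes, 5 Snord and 7 Snora, every Dp16 library lay below every WT library, which is 22.6% of the 53 where 6.96% of all genes tested did so, and in 0 of the 53 did every Dp16 library lie above, where 7.11% of all genes did. When WT replicate 3 was left out, 43 of the 53 had a log2 fold change below 0, the medians were -0.44 for Snord and -0.50 for Snora, and 17 had an unadjusted edgeR p below 0.05, all lower, where 10.2% of all genes did so as lower. By class, 14 of the 17 Snora and 29 of the 36 Snord genes were below 0. In that fit edgeR called 0 of the 53 and 0.0202% of all genes.

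**Figure D2:**
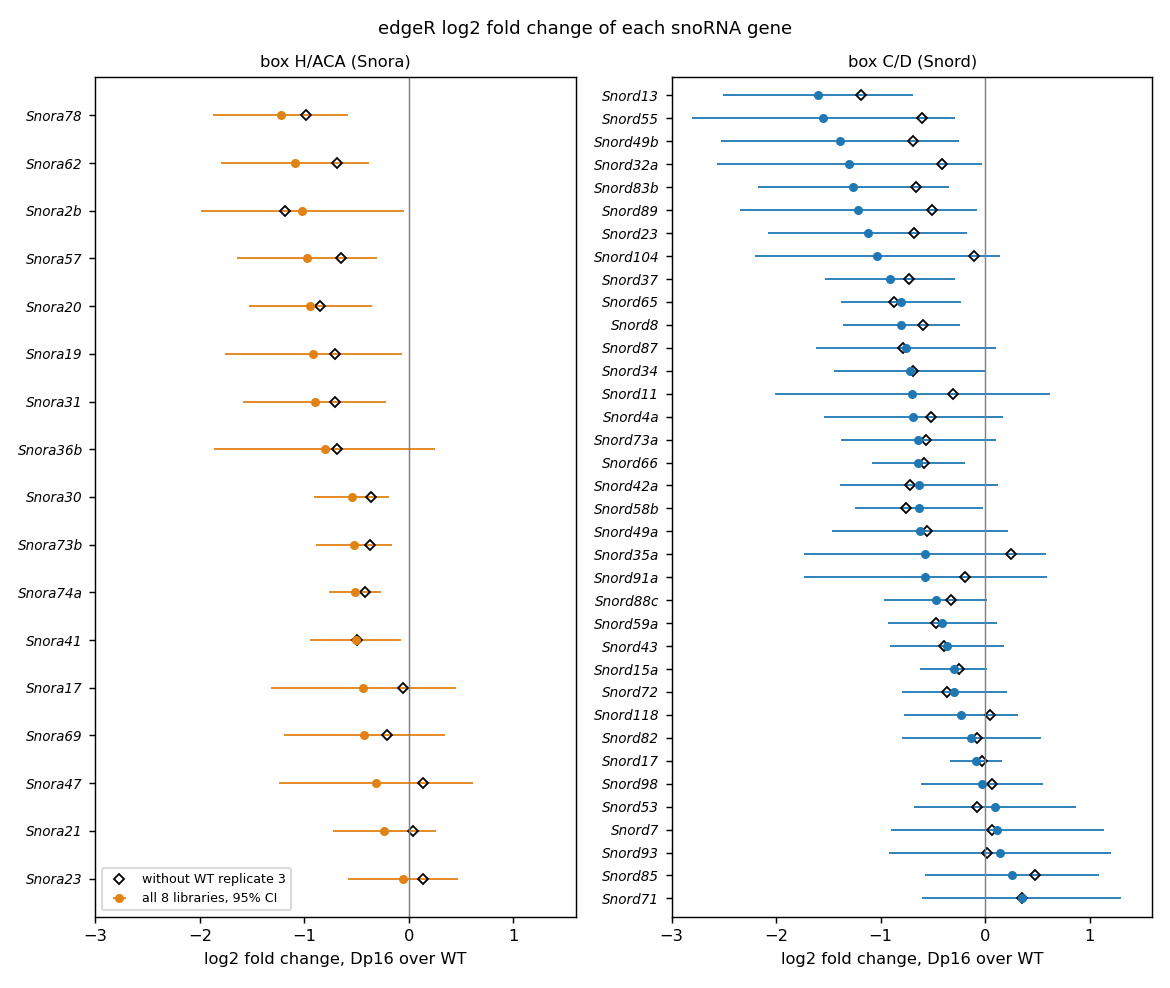
Log2 fold change (Dp16 over WT) of each Snora gene (left) and each Snord gene (right) from the edgeR fit, as filled points with 95% confidence intervals over all 8 libraries, and as open diamonds without WT replicate 3. All 17 Snora points and 31 of 36 Snord points lie below 0, and without WT replicate 3 the medians are -0.50 (Snora) and -0.44 (Snord).

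Among the H/ACA RNAs, Snora74a had the most reads and the smallest p. Snora74a, the U19 RNA, guides pseudouridine formation in the large-subunit ribosomal RNA. It was at 263, 262, 258 and 242 CPM in Dp16, against 337, 358, 446 and 329 CPM in WT. No library of one genotype reached the range of the other, and the Dp16 libraries lay within a narrow band. The log2 fold change was -0.52 (SE 0.110, 95% confidence interval -0.77 to -0.27, edgeR adjusted p = 0.0657), and -0.42 without WT replicate 3. It has no annotated same-strand host and lies partly under an exon of Gm49347, so reads of the 2 genes may not be told apart.

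Snora73b belongs to the U17 RNAs, which act in cutting the precursor of the small-subunit ribosomal RNA and are not known as guides of modification. It was at 126, 102, 139 and 136 CPM in Dp16, against 152, 174, 241 and 156 CPM in WT, again without overlap. Its log2 fold change was -0.52 (SE 0.161, edgeR adjusted p = 0.111). It overlaps an exon of Gm17300 on the opposite strand, and the strand setting of the counting is not given in the sources used here.

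Snora78, in Snhg9, had the largest difference of its class. It was at 13.7, 11.8, 14.3 and 10.1 CPM in Dp16, against 28.7, 30.9, 43.1 and 13.9 CPM in WT. The first 3 WT libraries held at least 28.7 CPM, whereas WT replicate 4 lay within the Dp16 range, so the groups overlapped. The log2 fold change was -1.23 (SE 0.287, 95% confidence interval -1.87 to -0.58, edgeR adjusted p = 0.0719). Without WT replicate 4 it was -1.46 and the call was made (edgeR adjusted p = 0.0440), in a fit that called 2 of the 53 and 0.0303% of all genes as lower.

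Snora30, in Srcap, was at 11.2, 10.9, 11.9 and 10.5 CPM in Dp16, against 14.7, 15, 22.5 and 13 CPM in WT, without overlap. Its log2 fold change was -0.55 (SE 0.159, edgeR adjusted p = 0.102), and -0.36 without WT replicate 3. Snora21, in Rpl23, gave no such separation, with 25.1, 19.3, 25 and 24.9 CPM in Dp16 and 21.9, 25.8, 42.8 and 20.4 CPM in WT. Of the 4 Dp16 libraries, 3 lay above 2 of the WT libraries and 1 lay below all WT libraries, and the log2 fold change turned from -0.23 with all libraries to 0.043 without WT replicate 3 (edgeR adjusted p = 0.532 and 0.859).

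Snora62 and Snora20, with fewer reads, completed the 5 smallest p of the class. Snora62, the E2 RNA in the ribosomal protein gene Rpsa, was at 1.08, 0.754, 0.900 and 0.765 CPM in Dp16, against 1.42, 1.45, 3.25 and 1.32 CPM in WT. Snora20, in the chaperonin gene Tcp1, was at 0.174, 0.217, 0.149 and 0.155 CPM in Dp16, against 0.302, 0.302, 0.407 and 0.330 CPM in WT. Neither overlapped between the genotypes. Their log2 fold changes were -1.09 for Snora62 (SE 0.314, edgeR adjusted p = 0.10) and -0.94 for Snora20 (SE 0.260, edgeR adjusted p = 0.0919). Snora62 was at -0.69 without WT replicate 3. Snora20 held 213 reads in all.

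Among the C/D RNAs, Snord17 had the most reads and stayed close between the genotypes. It was at 114, 106, 121 and 99.1 CPM in Dp16, against 97.5, 123, 134 and 114 CPM in WT. The 2 sets of values were interleaved, and the log2 fold change was -0.09 (SE 0.109, 95% confidence interval -0.33 to 0.16, edgeR adjusted p = 0.635). Snord15a, a guide of ribose methylation in the large-subunit ribosomal RNA, was at 13.5, 13.7, 12.3 and 10.3 CPM in Dp16, against 18, 13.8, 17.3 and 12.4 CPM in WT. The groups overlapped through WT replicate 4, and the log2 fold change was -0.30 (SE 0.142, edgeR adjusted p = 0.224).

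Snord13 had the largest difference of all 53 genes. It is the U13 RNA, which pairs with the small-subunit ribosomal RNA and is needed for acetylation of a cytidine there, an exception among C/D RNAs. It was at 7.98, 6.94, 7.83 and 9.62 CPM in Dp16, against 23.9, 23.2, 43.2 and 7.86 CPM in WT. WT replicates 1 to 3 lay above all Dp16 libraries by a wide margin, and WT replicate 4 lay among the Dp16 libraries. The log2 fold change was -1.60 (SE 0.406, 95% confidence interval -2.51 to -0.69, edgeR adjusted p = 0.0815), -1.19 without WT replicate 3, and -1.90 without WT replicate 4, where the call was made (edgeR adjusted p = 0.0440).

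Snord104 and Snord89 differed between the groups mainly through WT replicate 3. Snord104 was at 6.74, 5.84, 7.20 and 6.71 CPM in Dp16, against 9.72, 6.20, 32.9 and 5.30 CPM in WT. Its log2 fold change of -1.03 (SE 0.522, edgeR adjusted p = 0.252) became -0.11 without WT replicate 3. Snord89 was at 6.00, 4.45, 8.47 and 5.47 CPM in Dp16, against 11.6, 10.1, 30.7 and 4.26 CPM in WT. Its log2 fold change was -1.21 (SE 0.503, edgeR adjusted p = 0.182), and -0.51 without WT replicate 3. In both genes the lowest library of all 8 was WT replicate 4 and the highest was WT replicate 3. Snord118, the U8 RNA, which acts in cutting the large-subunit precursor, was at 5.80 to 6.40 CPM in Dp16 and 4.32 to 11.2 CPM in WT, with a log2 fold change of -0.23, or 0.044 without WT replicate 3.

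**Figure D3:**
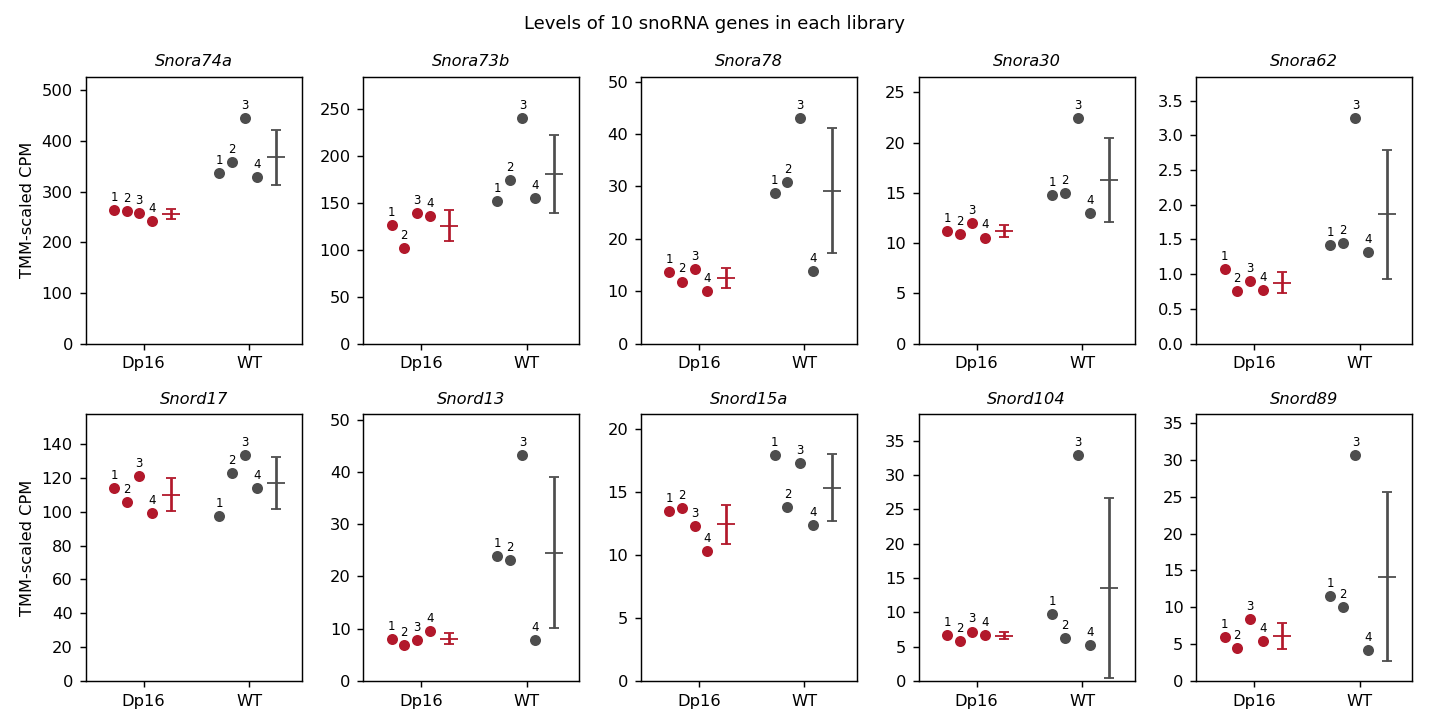
TMM-scaled CPM of 5 Snora genes (top) and 5 Snord genes (bottom), with 1 numbered point per library, Dp16 left of WT, and the mean ± SD (n = 4) beside the points. In Snora74a, Snora73b, Snora30 and Snora62 the groups do not overlap, in Snora78 and Snord13 WT replicate 4 lies with Dp16, and in Snord104 and Snord89 WT replicate 3 stands apart at 32.9 and 30.7 CPM.

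The other C/D RNAs with the smallest p had fewer reads. Snord37, a guide of ribose methylation in the large-subunit ribosomal RNA within Eef2, was at 0.210, 0.329, 0.297 and 0.227 CPM in Dp16, against 0.493, 0.375, 0.684 and 0.451 CPM in WT. Snord66, a guide for the small-subunit ribosomal RNA within Eif4g1, was at 0.402, 0.364, 0.381 and 0.434 CPM in Dp16, against 0.665, 0.552, 0.694 and 0.555 CPM in WT. Snord65, in 2410006H16Rik, was at 0.201, 0.295, 0.204 and 0.207 CPM in Dp16, against 0.342, 0.468, 0.347 and 0.434 CPM in WT. None of these 3 overlapped between the genotypes, and WT replicate 3 was not the highest WT library for Snord65.

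Their log2 fold changes were -0.91 for Snord37 (SE 0.277), -0.64 for Snord66 (SE 0.198) and -0.81 for Snord65 (SE 0.256), with edgeR adjusted p of 0.110, 0.111 and 0.115. Snord8, which guides ribose methylation of the U6 spliceosomal RNA and lies in Chd8, was at 1.36, 2.02, 1.88 and 1.32 CPM in Dp16, against 3.01, 1.99, 4.09 and 2.41 CPM in WT. The groups overlapped narrowly, and the log2 fold change was -0.80 (SE 0.248, edgeR adjusted p = 0.112). Snord66 and Snora2b lie partly under exons of their hosts, so reads of each RNA and its host may not be told apart.

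Near the threshold, counts were low and the values coarse. Just inside it, Snora19 held 84 reads in all and averaged 0.0690 ± 0.0187 CPM in Dp16 and 0.132 ± 0.0383 CPM in WT (SD, n = 4 each). Snord91a, with 88 reads, averaged 0.0859 ± 0.0488 CPM in Dp16 and 0.128 ± 0.0617 CPM in WT, and Snora2b, with 94 reads, averaged 0.0750 ± 0.0136 CPM in Dp16 and 0.153 ± 0.0856 CPM in WT (SD, n = 4 each). Just outside it, Snord70 (71 reads) averaged 0.0663 CPM in Dp16 and 0.104 CPM in WT, Snord92 (65 reads) 0.0998 CPM in Dp16 and 0.0525 CPM in WT, and Snord61 (49 reads) 0.0481 CPM in Dp16 and 0.0654 CPM in WT. These 3 did not pass the expression filter and were not tested.

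By read depth, the 19 genes with at least 1000 reads all had log2 fold changes below 0, with a median of -0.80, and the 34 genes below 1000 reads had a median of -0.63, with 29 below 0. Without WT replicate 3 the order turned, with medians of -0.41 (16 of 19 below 0) and -0.51 (27 of 34 below 0). By length, the 28 Snord genes under 100 bases had a median of -0.63 and the 8 of 100 bases or more -0.58. By copy identity, the 12 genes with a close copy had a median of -0.52 and the 41 others -0.64. No test was made of these differences.

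On the TMM scale, WT replicate 3 stood above the other WT libraries in both classes, and WT replicate 4 below them. Relative to the mean of the other 3 WT libraries, WT replicate 3 had a median log2 ratio of 0.36 over the Snord genes and 0.70 over the Snora genes. It was the highest WT library for 21 of 36 Snord and 14 of 17 Snora genes, and it exceeded the mean of the others by more than 2-fold for 11 Snord and 4 Snora genes. The largest ratios were 4.80-fold for Snord55, 4.65-fold for Snord104, 4.46-fold for Snord32a and 4.15-fold for Snord35a, named here after their values were seen. WT replicate 4, whose library name in the labels carries the number 5, had medians of -0.29 and -0.57 in the 2 classes and was the lowest WT library for 16 of 36 Snord and 12 of 17 Snora genes. The 4 Dp16 libraries had medians between -0.14 and 0.06 for Snord and between -0.20 and 0.14 for Snora.

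**Figure D4:**
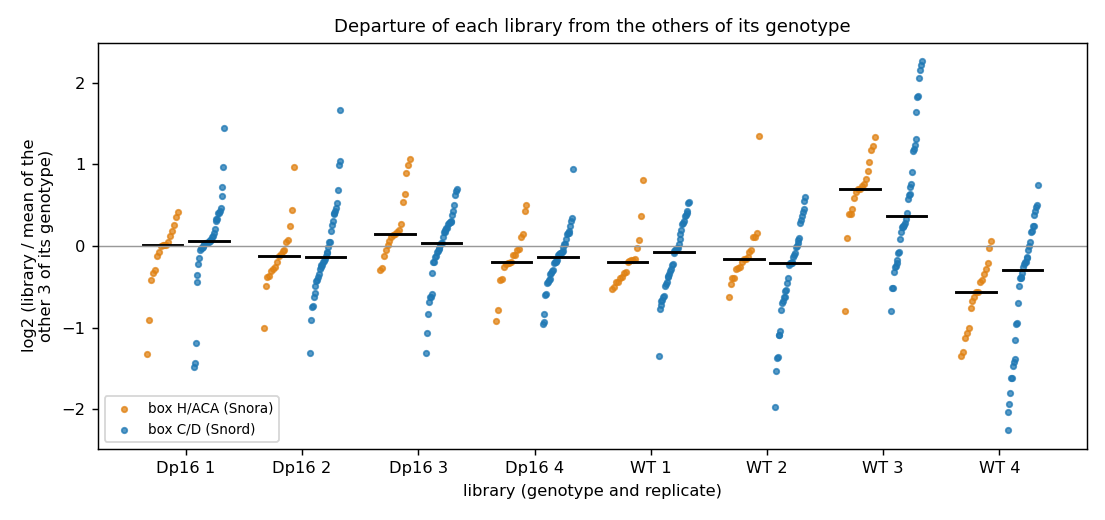
Log2 ratio of each library to the mean of the other 3 libraries of its genotype, with 1 point per snoRNA gene, Snora left and Snord right in each library, and a black bar at the median. WT 3 has medians of 0.70 (Snora) and 0.36 (Snord) and WT 4 of -0.57 and -0.29, while the Dp16 medians lie between -0.20 and 0.14.

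SnoRNAs of 1 host did not all share this excess. Of the 3 RNAs from 2410006H16Rik printed above, Snord49b was at 0.969, 0.659, 0.715 and 0.827 CPM in Dp16, against 2.03, 0.947, 4.51 and 0.816 CPM in WT. Its WT replicate 3 was 3.57-fold the mean of the other WT libraries, where that ratio was 1.21 for Snord49a and 0.837 for Snord65. Snord49a was at 0.110, 0.407, 0.288 and 0.196 CPM in Dp16, against 0.383, 0.385, 0.446 and 0.338 CPM in WT, with 1 Dp16 library inside the WT range.

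Rpl13a, a ribosomal protein gene, hosts Snord32a, Snord34 and Snord35a among the 53, and in mouse cells RNAs of this host have been linked to the response to lipid-induced stress. Snord32a was at 2.39, 1.84, 2.63 and 2.17 CPM in Dp16, against 4.39, 3.10, 13.3 and 1.45 CPM in WT. Snord35a was at 0.640, 0.399, 0.770 and 0.599 CPM in Dp16, against 0.624, 0.489, 2.09 and 0.399 CPM in WT. Snord34 was at 0.155, 0.0867, 0.102 and 0.0930 CPM in Dp16, against 0.161, 0.219, 0.198 and 0.147 CPM in WT. WT replicate 3 was more than 4-fold above the mean of the other WT libraries in Snord32a and Snord35a, and 1.13-fold in Snord34. Without that library the log2 fold changes were -0.41 for Snord32a, 0.24 for Snord35a and -0.69 for Snord34, against -1.30, -0.58 and -0.72 with it.

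Of the 53 RNAs, 47 lie within an annotated gene on their own strand, in 41 different hosts, and 6 do not (Snord13, Snord104, Snord118, Snora57, Snora17 and Snora74a). By median, the host genes had a fold change closer to 0 than their snoRNAs, though not in every pair. The median log2 fold change of the 41 hosts was -0.13, with 34 below 0 and 0 called by edgeR, where 0.625% of all genes were called. At an unadjusted p below 0.05 there were 11 of the 41 (26.8%), where 24.6% of all genes were. Of the 11, 10 were lower in Dp16 and 1 was higher, and 11.9% of all genes met this p as lower. DESeq2 called 2 as lower, where it called 4.2% of all genes. In 41 of the 47 pairs the snoRNA had the lower log2 fold change of the 2, and the median difference (snoRNA minus host) was -0.54. SnoRNA and host had the same sign in 35 of the 47 pairs. Across the 47 pairs, which share libraries and in part hosts, Spearman's rho between snoRNA and host fold changes was 0.064. It was 0.51 across the 14 Snora pairs and -0.050 across the 33 Snord pairs.

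For the pairs with the most reads, Snora73b at -0.52 stood beside Rcc1 at -0.30 (SE 0.207), Snord17 at -0.09 beside Snx5 at 0.13 (SE 0.0682), and Snora78 at -1.23 beside Snhg9 at -0.58 (SE 0.223) on the log2 scale. Snora30 at -0.55 stood beside Srcap at -0.02 (SE 0.0906). Both Snora73b and Snora30 also lie within another same-strand gene, which was not used as the host. The host with the smallest adjusted p was Rpl13a, at -0.48 (SE 0.110, edgeR adjusted p = 0.0709). For the 3 RNAs of 2410006H16Rik, the host was at 0.38 (SE 0.307) and the RNAs at -1.39, -0.63 and -0.81 for Snord49b, Snord49a and Snord65, with Snord49b at -0.69 without WT replicate 3.

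**Figure D5:**
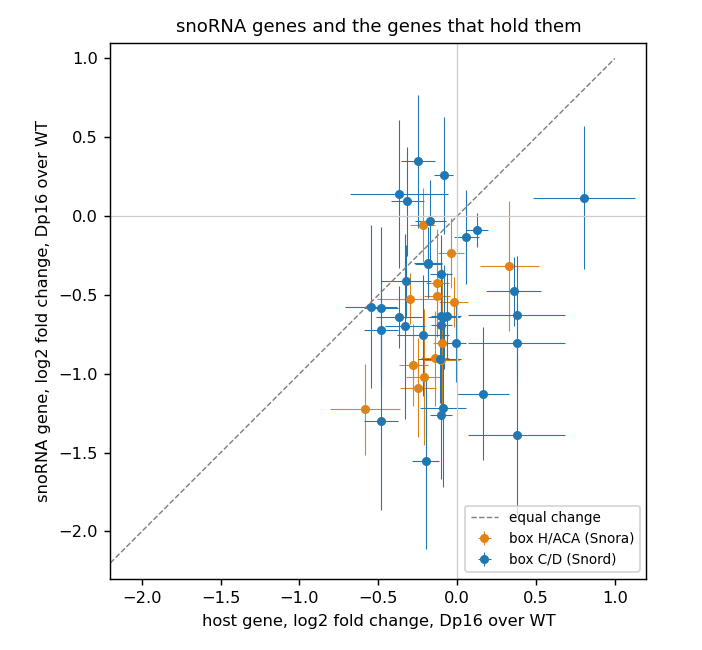
Log2 fold change (Dp16 over WT) of each snoRNA (y axis) against that of its host gene (x axis), with 47 points, bars of 1 standard error, and a dashed line where both are equal. Host values cluster near -0.13 while snoRNA values spread to -1.55, and 41 of the 47 points lie below the line.

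Transcripts of genes listed for the snoRNA complexes and their assembly gave 0 calls by edgeR. All 14 genes listed for the C/D complex and its assembly had log2 fold changes below 0, with a median of -0.32, and 0 were called by edgeR. At an unadjusted p below 0.05 there were 7, all lower, where 24.6% of all genes were in either direction and 11.9% as lower. DESeq2 called 3, where it called 4.2% of all genes as lower. Nolc1, a chaperone of both complexes in the nucleolus, was at 16.3 ± 0.885 CPM in Dp16 and 24.3 ± 4.00 CPM in WT (SD, n = 4 each; log2 fold change -0.57, edgeR adjusted p = 0.0649). Nop56, a core C/D protein, was at 12.6 ± 1.36 CPM in Dp16 and 18.9 ± 3.70 CPM in WT (log2 fold change -0.59, edgeR adjusted p = 0.0781). Rrp9, which binds the U3 RNA, was at 4.79 ± 0.551 CPM in Dp16 and 6.72 ± 1.31 CPM in WT (log2 fold change -0.49, edgeR adjusted p = 0.115).

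Of 8 genes listed for the H/ACA complex and its assembly, 6 were below 0, with a median of -0.27 and 0 called by edgeR. Of the 8, 3 had an unadjusted p below 0.05, all lower, where 24.6% of all genes had one in either direction and 11.9% as lower. DESeq2 called 2 as lower, where it called 4.2% of all genes. Nolc1 is in both complex lists and is counted in each. Coil, a Cajal body protein, and Shq1, an assembly factor, were the 2 at or above 0 (0.10 and 0.0013). Nop10, a core protein, was at 24.1 ± 2.93 CPM in Dp16 and 31.3 ± 2.64 CPM in WT (SD, n = 4 each; log2 fold change -0.38, edgeR adjusted p = 0.0889), and Gar1, another, at 5.91 ± 1.05 CPM in Dp16 and 7.72 ± 1.32 CPM in WT (log2 fold change -0.39, edgeR adjusted p = 0.186). Dkc1, the pseudouridine synthase, had a log2 fold change of -0.17. Of 13 genes of snoRNA processing, capping and decay, 8 were below 0, with a median of -0.10 and 0 called by edgeR or DESeq2. An unadjusted p below 0.05 was found for 3 of the 13, close to the 24.6% of all genes. Among them, the exonuclease Xrn1 was at 0.19, the exosome subunit Exosc3 at -0.29 and the exosome helicase Mtrex at -0.22 in log2 fold change.

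Of 20 long noncoding snoRNA host genes listed, 18 were in the tables and tested. Of the 18, 12 were below 0, with a median of -0.13 and 0 called by edgeR. At an unadjusted p below 0.05 there were 6 of the 18, all but Snhg14 lower, where 24.6% of all genes were in either direction and 11.9% as lower. DESeq2 called 1 as lower and 1 as higher. Snhg15 was at 3.27 ± 0.499 CPM in Dp16 and 5.23 ± 0.354 CPM in WT (SD, n = 4 each; log2 fold change -0.68, edgeR adjusted p = 0.0577). Snhg14, the host of the imprinted C/D clusters, went the other way, at 2.34 ± 0.159 CPM in Dp16 and 1.58 ± 0.294 CPM in WT (log2 fold change 0.56, edgeR adjusted p = 0.0986).

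Of 19 other short noncoding RNAs tested, 18 had log2 fold changes below 0, with a median of -0.45 and 0 called by edgeR. At an unadjusted p below 0.05 there were 6 of the 19, all lower, where 24.6% of all genes were in either direction and 11.9% as lower. DESeq2 called 4 as lower, where it called 4.2% of all genes. Their summed level was 10292 to 12826 CPM in Dp16 and 13350 to 16735 CPM in WT, and most of it was Rn7sk, the RNA of the 7SK complex, at 10718 ± 1190 CPM in Dp16 and 12214 ± 353 CPM in WT (SD, n = 4 each; log2 fold change -0.19, edgeR adjusted p = 0.481). Rpph1, the RNA of ribonuclease P, was at 4.47 ± 0.919 CPM in Dp16 and 6.86 ± 0.479 CPM in WT (SD, n = 4 each; log2 fold change -0.62, edgeR adjusted p = 0.0745). Scarna2, a guide RNA of the Cajal body, was at 47.8 ± 5.96 CPM in Dp16 and 65.4 ± 9.77 CPM in WT (log2 fold change -0.45, edgeR adjusted p = 0.0956). Rny3, a Y RNA, was at 504 ± 97.8 CPM in Dp16 and 1562 ± 1148 CPM in WT (log2 fold change -1.63, edgeR adjusted p = 0.102). WT replicate 3 was 3.09-fold the mean of the other WT libraries for Rny3, and the log2 fold change was -1.04 without it. For Rny1 it was 2.80-fold, and the log2 fold change of -1.11 became -0.58. Without that library Rnu12, Scarna8 and Scarna17 turned above 0, at 0.12, 0.72 and 0.18. Scarna9 turned just below 0, at -0.0011, and the others kept their sign. The part of RNA size or of library making in the snoRNA values was not tested. Rmrp and Rnu7 had 0 reads in all 8 libraries.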

How the data were processed

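Total RNA of male submandibular glands was isolated with a kit that keeps short RNAs and made into stranded, ribosomal RNA-depleted libraries, per the labels' protocols. The authors deposited whole-number read counts for 54838 Ensembl genes in each library. FastQC, STAR, HTSeq, DESeq2 and GRCm38 appear in the submitters' processing notes, with no versions. The sources used here do not give the annotation release or the use of strand in counting. A further 5 rows without a gene name, with 58.1% to 65.4% of a library's reads, entered neither library sizes nor tests. They include reads with more than 1 alignment, so counts of snoRNAs with near-identical copies are uncertain.

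Names, types and positions came from GENCODE M21 (GRCm38), to which 54723 genes matched and 115 did not. Hosts are genes in the tables that enclose a snoRNA on its strand. Where more than 1 did, a gene without a Gm, Rik or clone symbol was taken first, then a protein-coding one. Identity between snoRNAs was found with edlib 1.3.9.post1. The tests used edgeR 4.0.16 under R 4.3.3. After edgeR's own expression filter, 19358 genes were scaled by TMM and tested by the quasi-likelihood F-test with genotype as the only term, two-sided, with Benjamini-Hochberg adjustment over all genes tested and calls below 0.05. Levels are TMM-scaled CPM unless another scale is named. DESeq2 1.42.0, limma 3.58.1 (voom with quality weights), other scalings and filters, a replicate block and leaving out each library were tried, and the edgeR step was tested on simulated data. An adjusted p that DESeq2 left empty was kept out of its counts, and all 53 snoRNA genes had one. Library shares were compared by an exact permutation test in Python 3.11.15 with scipy 1.17.1.

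The snoRNA genes and the gene lists were chosen with earlier results of these data known. The rule for named snoRNA genes took, in each class, the 5 with the highest mean CPM and the 5 with the smallest p, every called one, any in the duplicated segment, and the 3 on each side of 80 reads. In each gene list it took every called gene and up to 3 with the smallest p, and genes named beyond it were chosen after their values were seen. The sequence of 1 abundant C/D snoRNA is not reported here.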

Additional observations from a re-analysis of the deposited data

Results flagged for a closer look

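In 9 of the 114 groups of 4 libraries examined, 1 library stood apart, with a gap to the nearest library above Dixon's critical share of the group's range. Chance alone flags about 1 in 20 groups. Of the 9, 4 are WT replicate 3. For Snora62 it held 3.25 CPM, against 1.32 to 1.45 CPM in the other WT libraries (gap over range 0.934). For Snord35a it held 2.09 CPM, against 0.399 to 0.624 CPM (0.867), and for Snord55 3.59 CPM, against 0.604 to 1.02 CPM (0.862). For Snord104 it held 32.9 CPM, against 5.30 to 9.72 CPM (0.840). WT replicate 2 was high for Snora2b, at 0.281 CPM, against 0.0992 to 0.121 CPM (0.881).

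Among the Dp16 libraries, replicate 2 was low for Snora21, at 19.3 CPM, against 24.9 to 25.1 CPM in the others (0.964). It was high for Snord65, at 0.295 CPM, against 0.201 to 0.207 CPM (0.940), and for Snord93, at 0.295 CPM, against 0.0731 to 0.103 CPM (0.864). Dp16 replicate 4 was low for Snord85, at 0.145 CPM, against 0.251 to 0.269 CPM (0.855).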

How the results depend on the processing

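The number of snoRNA genes called was 0 in the reported fit, 14 by DESeq2, 1 by limma-voom and 4 at an adjusted p below 0.10. It was 0 with relative log expression size factors, with TMM computed without the most abundant genes, and with either other filter. Leaving out 1 library gave 0 to 2, with 2 only without WT replicate 4 (Snord13 and Snora78). At an unadjusted p below 0.05 there were 23, or 12 of the 20 tested when a gene needed a CPM of at least 1 in 4 libraries, and 17 to 25 when 1 library was left out. The Snord median of -0.63 was -0.89 under that CPM filter, which tests fewer genes, and -0.71 to -0.44 when 1 library was left out, and -0.44 is without WT replicate 3. The Snora median of -0.55 was -0.78 to -0.50 when 1 library was left out. The log2 ratio of the summed Snord level was -0.41, or -0.91 without Snord17, and -0.53 to -0.18 when 1 library was left out. For the summed Snora level it was -0.53, and -0.60 to -0.39 when 1 library was left out. The log2 fold change of Snora21 was -0.36 to 0.043 when 1 library was left out, and it was above 0 only without WT replicate 3. The cause of these differences was not tested.

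Of the lists of snoRNA-related genes and other short RNAs, each at 0 calls in the reported fit, the C/D complex had 3 by DESeq2, 1 by limma-voom and 0 to 1 with 1 library left out. The H/ACA complex had 2, 1 and 0 to 1 in the same order, the long noncoding hosts 2, 1 and 0 to 1, and the other short RNAs 4, 1 and 0 to 1. Nolc1 is in both complex lists. The share of reads overlapping no counted feature differed by 4.42 to 5.26 percentage points with 1 library left out (exact permutation p = 0.0571 each, the smallest that 3 against 4 allows).

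With the replicate number as a block, 2 snoRNA genes were called (Snora74a and Snora78), 3 C/D complex genes, 2 H/ACA complex genes and 2 other short RNAs, where 2.15% of all genes were called lower. Same-numbered libraries deviated together with correlations of 0.191, 0.129, 0.0777 and 0.105, of which 1 is not over 0.1, and not every library correlated best with its own number, so the samples are taken to share only a number.

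Depth limits what can be seen for genes near 80 reads in all, where intervals are wide.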

Other observations

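Besides the 53, 94 genes of the snoRNA type that carry other symbols held 80 or more reads. Their median log2 fold change was -0.25 (Dp16 over WT), with 71 below 0, against -0.63 for the 53 and 0.01 for all genes tested, and edgeR called 1 of them, where it called 0.625% of all genes. The one called was Gm25394 on chromosome 13, which fell to 24.4, 24.5, 26.6 and 22.0 CPM in Dp16, against 46.3, 39.8, 52.8 and 36.1 CPM in WT (log2 fold change -0.84, SE 0.120, edgeR adjusted p = 0.0285). Its groups did not overlap, and WT replicates 3 and 4 were its highest and lowest WT libraries. Gm22422, with the most reads of the 94, was at 62.6, 57.8, 74.6 and 56.2 CPM in Dp16, against 74.7, 66.2, 95 and 60.8 CPM in WT, with overlap (log2 fold change -0.24, edgeR adjusted p = 0.333). It was named after its values were seen. The summed level of the 94 was 510 ± 47.2 CPM in Dp16 and 667 ± 143 CPM in WT (SD, n = 4 each), and the groups overlapped.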
